A study of Mus musculus with 12 samples.

Results

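The 10 genes described here are switched on within minutes of a stimulus and are known to rise when a tissue is taken apart into single cells; they were read across 12 RNA-seq libraries of mouse adipose stromal cells. They are Fos, Fosb, Jun, Junb, Egr1, Ier2, Atf3, Nr4a1, Dusp1 and Zfp36, chosen by name as immediate early and dissociation stress genes, with earlier results of these data known. All 10 were found among the 24422 gene rows, and all 10 passed the filter on low counts that left 16713 genes for testing. The cells came from adipose tissue, are labelled as primary stromal cells and are called SVF, the stromal vascular fraction, in the design text. The libraries fall into 4 groups of 3. SD mCherry (replicates 1, 2 and 3) carried the genotype p21+/mcherry and was kept on a standard diet. HFD mCherry (replicates 15, 17 and 20) shared this genotype but was fed a high fat diet. HFD Tert (replicates 25, 26 and 27) was p21+/mcherry-Tert on a high fat diet, and HFD TertCi (replicates 30, 31 and 33) was p21+/mcherry-TertCi on a high fat diet. Tert is the catalytic subunit of telomerase and TertCi is its catalytically inactive form; both are driven by the promoter of p21 (Cdkn1a), a cell cycle inhibitor, and so depend on cells in which that promoter is active. All 4 groups thus carry a modified p21 allele, and none has 2 unmodified ones; the design text of the series has p21+/- for the control on high fat diet where the labels have p21+/mcherry, and the labels were followed. Age, sex, fat depot, time on the diet, the way the tissue was dissociated and the time from tissue to lysis are not given in the sources used here.

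Immediate early genes are transcribed without new protein synthesis once kinases of the MAPK pathway or cAMP signalling activate factors already bound at their promoters, chiefly SRF with its TCF partners and CREB. Their mRNAs are short-lived, and several of the proteins, among them the phosphatase Dusp1 and the RNA-decay factor Zfp36, shut the response down again. In adipose stromal preparations the same genes are known to be induced by the warm enzymatic digestion that frees the cells.

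The promoters show the sequence that several members share. The RefSeq promoter table (GRCm38.p6) held windows for 8 of the 10 members; Egr1 and Ier2 had none. The motif TGACG, the core of the cAMP response element that CREB and ATF factors bind, was searched on both strands in the 250 bases before the start and lay in 6 of the 8 members against 17.8% of all 32851 promoters. Nr4a1 held 4 matches, Dusp1 3, Fos 2, and Fosb, Junb and Atf3 1 each, while Jun and Zfp36 held none. Of the 3 in Dusp1, 2 overlap on opposite strands of 1 palindrome, the full cAMP response element counted below. Below, the 150 bases before the start are given for the members whose window holds no annotated exon, and 30 bases around the match for Fosb, Atf3 and Dusp1; capitals mark TGACG or its reverse complement, and in Dusp1 the full palindromic element.
Fos (chr12:85473740-85473889, plus strand): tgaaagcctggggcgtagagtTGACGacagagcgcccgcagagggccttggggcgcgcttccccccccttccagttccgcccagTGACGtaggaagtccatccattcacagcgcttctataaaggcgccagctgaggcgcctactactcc
Junb (chr8:84978749-84978898, minus strand): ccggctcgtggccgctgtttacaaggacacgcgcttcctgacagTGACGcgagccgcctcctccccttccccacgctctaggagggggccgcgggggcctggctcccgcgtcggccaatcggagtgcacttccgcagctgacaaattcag
Nr4a1 (chr15:101266696-101266845, plus strand): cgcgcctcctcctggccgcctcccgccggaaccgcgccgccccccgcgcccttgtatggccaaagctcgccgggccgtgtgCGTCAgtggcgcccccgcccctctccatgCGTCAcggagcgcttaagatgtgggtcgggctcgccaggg
Jun (chr4:95052223-95052372, minus strand): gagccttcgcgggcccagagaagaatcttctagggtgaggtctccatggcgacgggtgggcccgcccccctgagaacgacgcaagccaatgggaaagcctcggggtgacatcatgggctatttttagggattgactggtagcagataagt
Fosb (chr7:19310088-19310117, minus strand): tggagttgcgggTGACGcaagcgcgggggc
Atf3 (chr1:191183334-191183363, minus strand): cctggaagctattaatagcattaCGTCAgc
Dusp1 (chr17:26508595-26508624, minus strand): tagggcgggTGACGTCAccgcccggtcacg
Jun is shown as a member without the motif. The genes with no sequence here include Ier2 (chr8:84661331-84662852, minus strand) and Zfp36 (chr7:28376784-28380253, minus strand), both protein-coding in GENCODE M21 on GRCm38. The CArG box, the SRF site, was matched in 1 of 8 members (Zfp36) against 1.47% of promoters, the EGR site in 3 of 8 (Fosb, Nr4a1 and Zfp36) against 4.7%, the full cAMP response element in 1 of 8 (Dusp1) against 1.55%, and the AP-1 site TGANTCA in 0 of 8 against 6.75%. A match describes letters in this window and is not a bound site; enhancers and sites beyond 250 bases were not searched.

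The libraries held 16430330 to 19486965 counts, and the 10 members took 0.859% to 1.94% of them. The member share was 1.90% and 1.94% in SD mCherry replicates 1 and 2, and 0.859% in replicate 3. The 9 high fat diet libraries lay between 0.922% and 1.14%. The fused mCherry-Tert feature had 0 counts in the 6 mCherry libraries and 33 to 86 in the 6 Tert and TertCi libraries. The label stromal was checked against marker genes: summed over 8 adipose progenitor markers the level was 2706 to 19125 CPM (counts scaled to the size of the library), and over 8 mature adipocyte markers 41.6 to 127 CPM. Genes typical of the epididymis summed to 12.2 CPM in SD mCherry replicate 2 and 55558 CPM in replicate 3; Crisp1, a secretory protein among them, was under 1 CPM in 1 library of each group. Their part in the results was not tested. The labels do not say whether replicates are separate animals, so p-values measure only the spread between these libraries, and in bulk RNA fewer cells of a type and less RNA per cell cannot be told apart.

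Per kilobase of exon the members ranked among the most abundant transcripts of these cells. Using the exonic lengths of the GENCODE M21 annotation, the median level over the 12 libraries ran from 134 CPM per kilobase for Fosb to 785 for Junb. Junb ranked 35 among 23376 genes with a length, Zfp36 64 and Nr4a1 100. Of the members 9 were in the top 1% and Fosb in the top 1.39%. Exons of Jun, Junb, Dusp1 and Zfp36 overlap a gene on the other strand (Junos, Prdx2, Ergic1 and Gm44710), and since strand use in counting is not given in the sources used here, reads of the 2 genes cannot be told apart there.

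**Figure D1:**
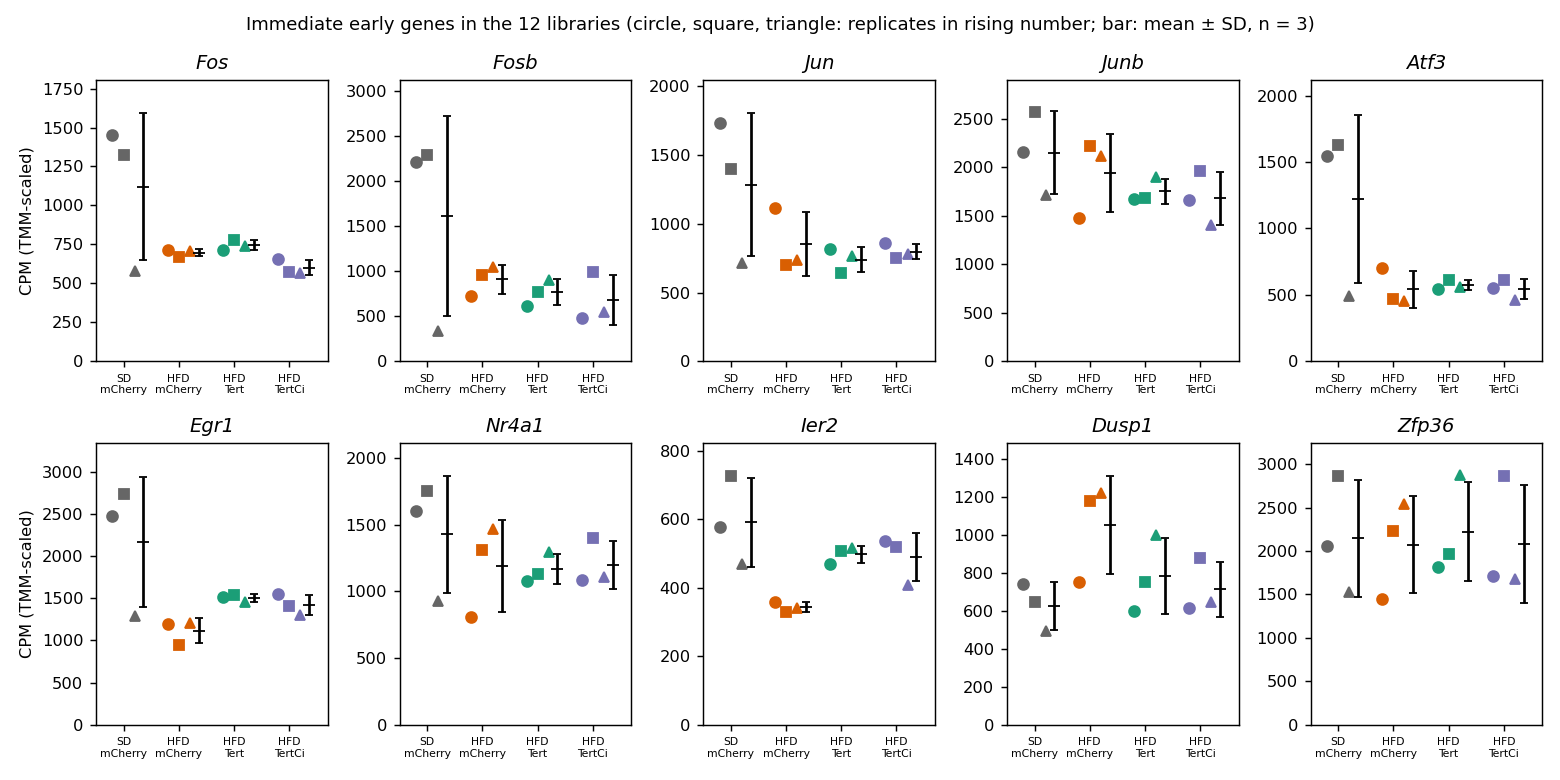
Each panel shows 1 of the 10 members, with CPM on a linear y axis from 0 and the 4 groups on the x axis; symbols are libraries in rising replicate number (circle, square, triangle), and the black bar is the mean with its SD over 3 libraries. In the Fos panel SD mCherry replicates 1 and 2 stand at 1453 and 1325 CPM and the other 10 libraries lie between 568 and 779 CPM.

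Fos, the inducible partner of Jun in the AP-1 transcription factor, varied more within the standard diet group than within any other group. In order of replicate, Fos measured 1453, 1325 and 582 CPM in the SD mCherry libraries, 714, 669 and 707 CPM in the HFD mCherry ones, 715, 779 and 739 CPM with Tert and 657, 575 and 568 CPM with TertCi. SD mCherry replicates 1 and 2 stood well above all others, and replicate 3 lay inside the range of the high fat diet libraries, so SD mCherry and HFD mCherry overlapped. Fosb, another Fos-family subunit, had the widest range. Fosb stood at 2216, 2295 and 332 CPM in the SD mCherry libraries, 726, 958 and 1046 CPM in the HFD mCherry ones, 616, 775 and 904 CPM with Tert and 486, 995 and 551 CPM with TertCi. Replicates 1 and 2 were again far above the rest, and replicate 3 was the lowest library of the 12. Jun, the main Jun-family partner of Fos, behaved the same way less steeply. For Jun the values were 1735, 1399 and 714 CPM in the SD mCherry libraries, 1118, 702 and 739.8 CPM in the HFD mCherry ones, 815, 641 and 764 CPM with Tert and 858, 753 and 780.2 CPM with TertCi. The same 2 libraries led and replicate 3 was within the high fat diet range, and HFD mCherry replicate 15 stood above its 2 neighbours. Junb, the Jun-family member that often restrains Jun, spread less. The level of Junb was 2158, 2573 and 1714 CPM in the SD mCherry libraries, 1474, 2214 and 2115 CPM in the HFD mCherry ones, 1672, 1679 and 1898 CPM with Tert and 1665, 1960.2 and 1406 CPM with TertCi. SD mCherry replicate 2 was highest, but replicate 1 lay below HFD mCherry replicate 17, and the groups overlapped. Atf3, an ATF-family stress factor that can dimerise with Jun, separated the 2 high libraries clearly. In order of replicate, Atf3 measured 1546, 1627 and 493 CPM in the SD mCherry libraries, 704, 466 and 453 CPM in the HFD mCherry ones, 545, 615 and 563 CPM with Tert and 552, 614 and 463 CPM with TertCi. The highest high fat diet library, HFD mCherry replicate 15, was far below both, and replicate 3 was inside the high fat diet range.

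Egr1, the zinc finger factor induced through SRF, was higher in all 3 SD mCherry libraries than in any HFD mCherry library. Egr1 stood at 2473, 2745 and 1295 CPM in the SD mCherry libraries, 1199.7, 948 and 1202 CPM in the HFD mCherry ones, 1517, 1540.5 and 1455 CPM with Tert and 1549, 1411 and 1301 CPM with TertCi. The lowest SD mCherry library stood above the highest HFD mCherry one, and the Tert and TertCi libraries lay above HFD mCherry as well. Nr4a1, an orphan nuclear receptor induced by cAMP and calcium signals, overlapped throughout. For Nr4a1 the values were 1599, 1754 and 928 CPM in the SD mCherry libraries, 804, 1309 and 1464 CPM in the HFD mCherry ones, 1077, 1132 and 1297 CPM with Tert and 1082, 1401 and 1104 CPM with TertCi. Replicates 1 and 2 were the 2 highest of all 12, and HFD mCherry replicates 17 and 20 came close behind. Ier2, a small nuclear protein of the immediate early class, had the lowest SD of log2 CPM within groups of the 10 members. The level of Ier2 was 576, 727 and 469 CPM in the SD mCherry libraries, 358, 329 and 340.0 CPM in the HFD mCherry ones, 468, 508 and 515 CPM with Tert and 537, 519.8 and 409 CPM with TertCi. All 3 HFD mCherry libraries were the lowest of the 12, with no overlap with any other group.

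For Dusp1 and Zfp36, the members that end the response, SD mCherry replicates 1 and 2 did not both exceed all high fat diet libraries. In this they were like Junb and unlike the other members. Dusp1 removes phosphate from MAP kinases. In order of replicate, Dusp1 measured 742, 646 and 493 CPM in the SD mCherry libraries, 754, 1181 and 1219.5 CPM in the HFD mCherry ones, 601, 751 and 999 CPM with Tert and 614, 881 and 645 CPM with TertCi. All 3 HFD mCherry libraries were above all 3 SD mCherry libraries, with HFD mCherry replicates 17 and 20 highest of the 12. These 2 libraries also had the highest adipose progenitor markers, 18929 and 19125 CPM against 6637 CPM in replicate 15, and their part in the Dusp1 level was not tested. Zfp36 (tristetraprolin) binds AU-rich elements and shortens the life of cytokine mRNAs. Zfp36 stood at 2062, 2858 and 1522 CPM in the SD mCherry libraries, 1449, 2235 and 2538 CPM in the HFD mCherry ones, 1819, 1968 and 2874 CPM with Tert and 1708, 2860.1 and 1674 CPM with TertCi. Its groups overlapped fully, and its highest library in each group was the one with Crisp1 under 1 CPM; the same held for Fosb and Nr4a1, in all 3 against 5.66% of genes tested (3 of 10 members).

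Between SD mCherry and HFD mCherry, the diet comparison that asks what a high fat diet does to p21+/mcherry stromal cells, no member passed adjusted p under 0.05 in edgeR's quasi-likelihood test with Benjamini-Hochberg adjustment, against 0.0479% of all 16713 genes. DESeq2 called 3 of 10, all lower (12.4% of genes): Ier2 (adjusted p = 0.00185 by DESeq2), Egr1 (adjusted p = 0.00629 by DESeq2) and Atf3 (adjusted p = 0.0286 by DESeq2). By limma-voom 0 of 10 were called. At unadjusted p under 0.05 there were 5 of 10 members against 24.1% of genes, 4 lower on the high fat diet (10% of genes) and 1 higher (14.1%). Ier2 was 1.73-fold lower in HFD mCherry (log2 fold change -0.79 ± 0.21 SE, adjusted p = 0.0841 by edgeR), and Egr1 1.94-fold lower (-0.96 ± 0.29 SE, adjusted p = 0.0978 by edgeR). Atf3 was 2.26-fold lower (-1.18 ± 0.39 SE, adjusted p = 0.123 by edgeR) and Fos 1.61-fold lower (-0.68 ± 0.30 SE, adjusted p = 0.198 by edgeR). Dusp1 was 1.68-fold higher (0.75 ± 0.29 SE, adjusted p = 0.165 by edgeR). Fosb (-0.83 ± 0.57 SE, adjusted p = 0.382 by edgeR) and Jun (-0.59 ± 0.32 SE, adjusted p = 0.280 by edgeR) had negative values that did not reach the unadjusted threshold either. Junb, Nr4a1 and Zfp36 differed by -0.15, -0.26 and -0.05. Groups did not overlap for 3 of 10 members (Egr1 and Ier2 lower, Dusp1 higher) against 25.5% of genes, and 9 of 10 had a negative log2 fold change against 54.1%; the members' median was -0.64 beside -0.08 over all genes.

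**Figure D2:**
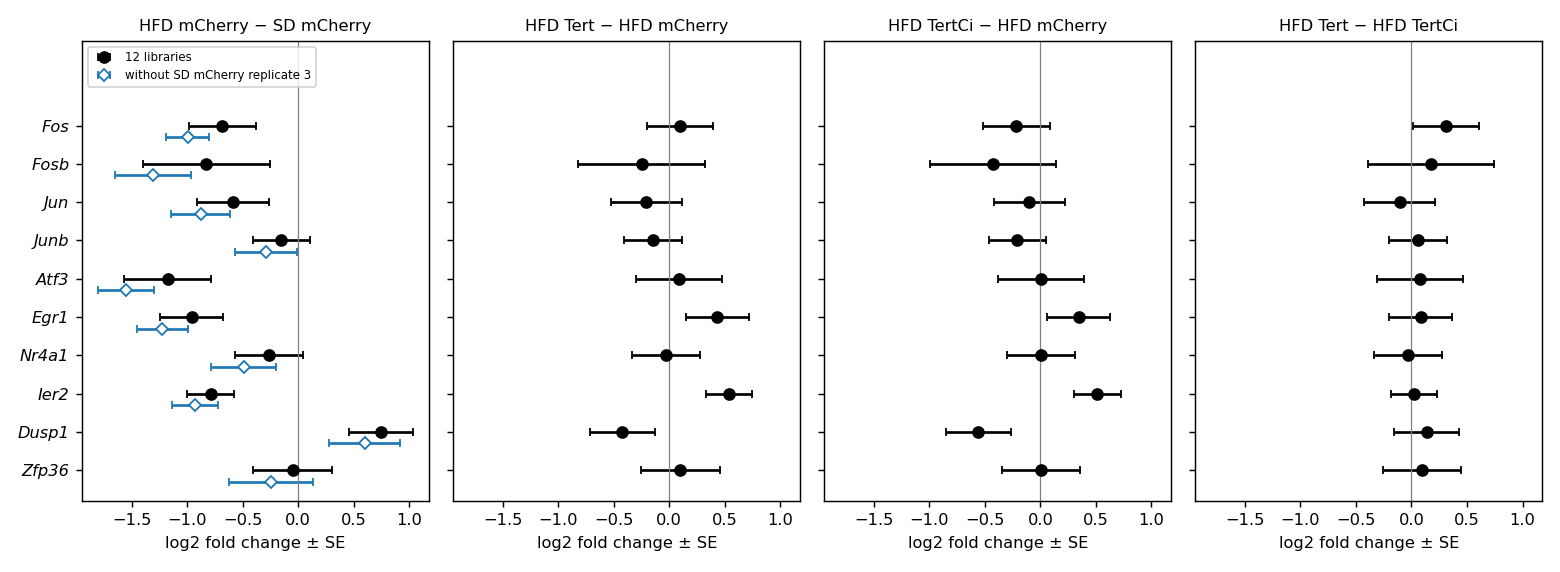
Log2 fold changes of the 10 members with their standard errors on the x axis, 1 panel for each of the 4 comparisons; filled circles come from the edgeR fit over all 12 libraries and, in the diet panel, open diamonds from the fit without SD mCherry replicate 3. In the diet panel the circles of 9 members lie below 0 and that of Dusp1 above it.

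Most members spread most widely within the standard diet group. Replicates 1 and 2 exceeded all 9 high fat diet libraries for 7 of 10 members (Atf3, Egr1, Fos, Fosb, Ier2, Jun and Nr4a1) against 12% of genes, and replicate 3 did so for none of these 7; of the 2000 genes with this pattern, 1589 likewise had replicate 3 not above. Replicate 3 was the lowest SD mCherry library for 10 of 10 members against 45.9% of genes. This was not particular to the members. It held for 8 of 8 adipose progenitor and 8 of 8 mature adipocyte markers. It also held for 9 of 11 other AP-1 and ATF genes and 11 of 15 other early response genes. The count was 6 of 14 for heat shock and chaperone genes, 4 of 11 for Zfp36 targets and 0 of 7 for epididymis markers. The mean of replicates 1 and 2 was 6.79 times replicate 3 for Fosb, 3.22 times for Atf3, 2.39 times for Fos and 1.38 times for Junb. The SD of log2 CPM within a group, as a median over the members, was 0.54 for SD mCherry, 0.34 for HFD mCherry, 0.12 for the Tert libraries and 0.21 for the TertCi ones, beside 0.45, 0.42, 0.41 and 0.42 over all genes tested. For Fos it was 0.73 in SD mCherry and 0.05 to 0.12 in the high fat diet groups. Pooled over the 4 groups it ran from 0.20 for Ier2 to 0.87 for Fosb, with a members' median of 0.37 beside 0.51 over all genes.

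Replicate 3 was also the library with the highest epididymis markers and the lowest adipose progenitor markers of the 12, at 2706 CPM against 3935 and 4208 CPM in replicates 1 and 2. The epididymis markers summed to 17496 CPM in replicate 1, 12.2 CPM in replicate 2 and 55558 CPM in replicate 3. Crisp1 itself was 8859, 0.24 and 14780 CPM in these libraries. The part of these genes in the member levels was not tested. Without replicate 3, edgeR called Atf3 (log2 fold change -1.55 ± 0.25 SE, adjusted p = 0.0492) among 0.281% of genes, and 6 of 10 members were at unadjusted p under 0.05 against 20.8% of genes; Fos was then 1.99-fold lower with adjusted p = 0.0651 and Egr1 2.34-fold lower with adjusted p = 0.0651 by edgeR. Replicate 3 was the lowest SD mCherry library for 10 of 10 members, so leaving it out raised their SD mCherry means by construction. These calls are thus no independent support, and 2 libraries remain in that group. Without replicate 1 the unadjusted count was 4 of 10 (21.4% of genes) and without replicate 2 it was 2 of 10 (19.2%). Over the 8 libraries with Crisp1 at 1 CPM or more, a comparison added after seeing the data, it was 0 of 10 with 15.8% of genes, from 2 libraries a group in this contrast. The log2 fold changes there were -0.82 ± 0.39 SE for Egr1, -0.61 ± 0.29 SE for Ier2, -0.56 ± 0.44 SE for Fos, -0.81 ± 0.54 SE for Atf3 and 0.64 ± 0.36 SE for Dusp1, each of the same sign as over all 12 libraries and with a larger SE. These are the members at unadjusted p under 0.05 over all 12 libraries, which include the 8, so a kept sign is no separate support. Zfp36 changed sign (0.0307).

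**Figure D3:**
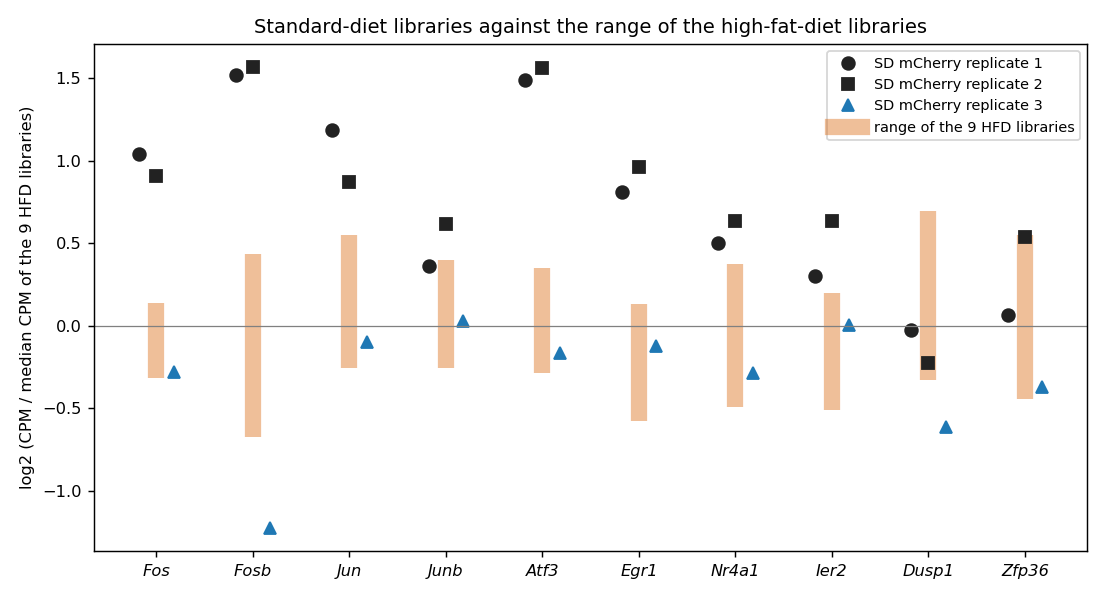
For each of the 10 members the range of the 9 high fat diet libraries is drawn as a vertical bar, with SD mCherry replicates 1, 2 and 3 as a circle, a square and a triangle; the y axis is log2 of CPM over the median CPM of those 9 libraries. For 7 members replicates 1 and 2 lie above the bar, while replicate 3 lies within it or, for Fosb and Dusp1, below it.

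No member passed the adjusted threshold in either telomerase comparison. These comparisons ask what Tert, or its inactive form, at the p21 locus changes on a high fat diet, and both use the same 3 HFD mCherry libraries. In HFD Tert against HFD mCherry edgeR called 0 of 10 members (0% of genes), DESeq2 0 (5.08% of genes) and limma-voom 0. At unadjusted p under 0.05 there was 1 of 10 (16.4% of genes): Ier2, 1.45-fold higher (0.54 ± 0.21 SE, adjusted p = 0.257 by edgeR). Egr1 (0.43 ± 0.28 SE), Fos (0.10 ± 0.30 SE) and Ier2 did not overlap and were higher, 3 of 10 against 21.1% of genes. In HFD TertCi against HFD mCherry edgeR called 0 of 10 (0.012% of genes), DESeq2 0 (4.09% of genes) and limma-voom 0. At unadjusted p under 0.05 there was 1 of 10 (14.7%), Ier2 again, 1.43-fold higher (0.51 ± 0.21 SE, adjusted p = 0.298 by edgeR). The groups did not overlap for 3 of 10 members (21.5% of genes): Egr1 (0.35 ± 0.28 SE) and Ier2 higher, and Fos (-0.22 ± 0.30 SE) lower. Dusp1 had log2 fold changes of -0.42 ± 0.29 SE with Tert and -0.56 ± 0.29 SE with TertCi, with overlapping libraries.

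Tert and TertCi libraries were compared directly as well. EdgeR called 0 of 10 members (0% of genes), DESeq2 0 (0.0419% of genes) and limma-voom 0. At unadjusted p under 0.05 there were 0 of 10 (1.36% of genes). Fos was the 1 of 10 whose groups did not overlap (5.13% of genes), at 715 to 779 CPM with Tert and 568 to 657 CPM with TertCi (0.31 ± 0.30 SE, adjusted p = 1 by edgeR). For the other 9 members the difference ran from -0.11 (Jun) to 0.18 (Fosb). A test over the 4 groups together called 0 of 10 by edgeR (0.012% of genes) and 0 by limma-voom. DESeq2 called 3 of 10. Its share of all genes in this test is not given here, so that count is not read as a result about the members. By edgeR Atf3, Egr1 and Ier2 were at unadjusted p under 0.05 (3 of 10, 20.2% of genes). Without SD mCherry replicate 3 the edgeR test called 2 of 10, Fos (adjusted p = 0.0352 by edgeR) and Atf3 (adjusted p = 0.0265 by edgeR), among 3% of genes. That fit leaves out the SD mCherry library that was lowest for 10 of 10 members, so these calls follow in part from the choice.

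Genes whose profile over the 12 libraries was most like that of Fos were ranked by the root-mean-square difference of centred log2 CPM among 10589 genes whose mean CPM was 10 or more, where the median gene differed by 0.61. The 5 nearest outside the 10 members were Trip6 (0.14), a LIM-domain adaptor, Crebrf (0.15), a regulator of CREB3, Mvb12b (0.16), a subunit of the ESCRT-I sorting complex, Srf (0.19) and Hirip3 (0.20), which binds the histone chaperone HIRA. For Srf the values were 353, 453 and 168 CPM in the SD mCherry libraries, 165, 206 and 208 CPM in the HFD mCherry ones, 201, 188 and 217 CPM with Tert and 207, 211 and 174 CPM with TertCi. As for Fos, SD mCherry replicates 1 and 2 stood above all other Srf values and replicate 3 beside the high fat diet libraries. This likeness follows from the ranking, which picked Srf for its closeness to Fos in these same libraries. Among the members themselves Egr1 (0.23), Jun (0.23) and Atf3 (0.27) were nearest to Fos, and Dusp1 (0.58), Fosb (0.49) and Zfp36 (0.45) farthest. These are descriptions over 12 shared libraries.

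The wider early response was read from 7 lists of 91 related genes. These lists were chosen with earlier results of these data known, so a share above that of all genes is no independent support. For the diet comparison edgeR called 0 of 91, with 28 at unadjusted p under 0.05 (19 higher, 9 lower), which is 30.8% against 24.1% of all genes. DESeq2 called 17 of 91, which is 18.7% against 12.4% of all genes, and limma-voom 0. Of 11 other AP-1 and ATF family genes, 2 were higher at unadjusted p, Jdp2 (1.69 ± 0.40 SE), a repressor that competes for AP-1 sites, and Batf (1.58 ± 0.58 SE), and 0 lower. Among 12 other early transcription factors, Nr4a3, an Nr4a1 relative, was higher (1.21 ± 0.36 SE) and the zinc finger factor Klf10 lower (-0.88 ± 0.27 SE). Among 14 feedback inhibitors 5 were higher, with the phosphatases Dusp10 (1.73 ± 0.40 SE) and Dusp2 (1.08 ± 0.30 SE) among them, and 1 lower, the EGR corepressor Nab2 (-0.83 ± 0.24 SE). Of 15 other early response genes 3 were lower, Btg2 (-1.02 ± 0.32 SE), an antiproliferative protein, and the matricellular Cyr61 (-1.28 ± 0.40 SE) and Ctgf (-0.54 ± 0.22 SE). Of 14 upstream regulators, 2 were higher, the SRF coactivator Mkl1 (1.15 ± 0.27 SE) and the TCF factor Elk4 (1.11 ± 0.43 SE), and Srf lower (-0.75 ± 0.30 SE). The pattern of SD mCherry replicates 1 and 2 above all 9 high fat diet libraries, found in 12% of genes, was shown by 5 of 15 other early response genes (Btg2, Cyr61, Trib1, Zfp36l1 and Zfp36l2), 2 of 12 early transcription factors (Klf4 and Klf6), 2 of 14 feedback inhibitors (Dusp4 and Dusp16), 3 of 14 heat shock and chaperone genes (Dnajb4, Hsp90aa1 and Hsph1), 1 of 14 upstream regulators (Srf), 0 of 11 Zfp36 targets and 0 of 11 other AP-1 and ATF genes.

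The inflammatory mRNAs that Zfp36 is known to destabilise had the largest median of the 7 related lists in the diet comparison. In HFD mCherry against SD mCherry 8 of 11 were higher at unadjusted p (14.1% of genes) and 0 lower (10%). Their median log2 fold change was 1.86, while Zfp36 itself differed by -0.05. The summed level of the 11 was 3888, 3772 and 6525 CPM in the SD mCherry libraries and 5885, 17191 and 15338 CPM in the HFD mCherry ones. The summed groups thus overlapped, and HFD mCherry replicates 17 and 20 stood highest. The chemokine Cxcl1 was 5.26-fold higher (2.40 ± 0.55 SE, adjusted p = 0.0708 by edgeR), Ccl2 5.15-fold (2.36 ± 0.56 SE) and Cxcl2 3.72-fold (1.89 ± 0.47 SE). Beside them, all 8 macrophage markers were higher at unadjusted p (14.1% of genes) with a median of 2.26. Their summed level was 1648 to 4258 CPM in HFD mCherry against 481 to 798 CPM in SD mCherry. The part of these cells in the result was not tested. Of 14 heat shock and chaperone genes, which also respond to handling, 12 had a negative log2 fold change (median -0.47) against 54.1% of genes. At unadjusted p 3 were lower (10% of genes), Dnaja1 (-0.71 ± 0.27 SE) and Hsph1 (-0.91 ± 0.36 SE) among them. The heat shock factor Hsf1 was higher (0.50 ± 0.19 SE). The summed level of the 14 was 7725, 6898 and 7906 CPM in the SD mCherry libraries and 7669, 4428 and 4454 CPM in the HFD mCherry ones. SD mCherry replicate 3, the lowest of the 12 libraries in the member sum, was thus the highest in this list by a small margin. Gene by gene, it was the lowest SD mCherry library for 6 of the 14, near the share of all genes (45.9%).

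**Figure D4:**
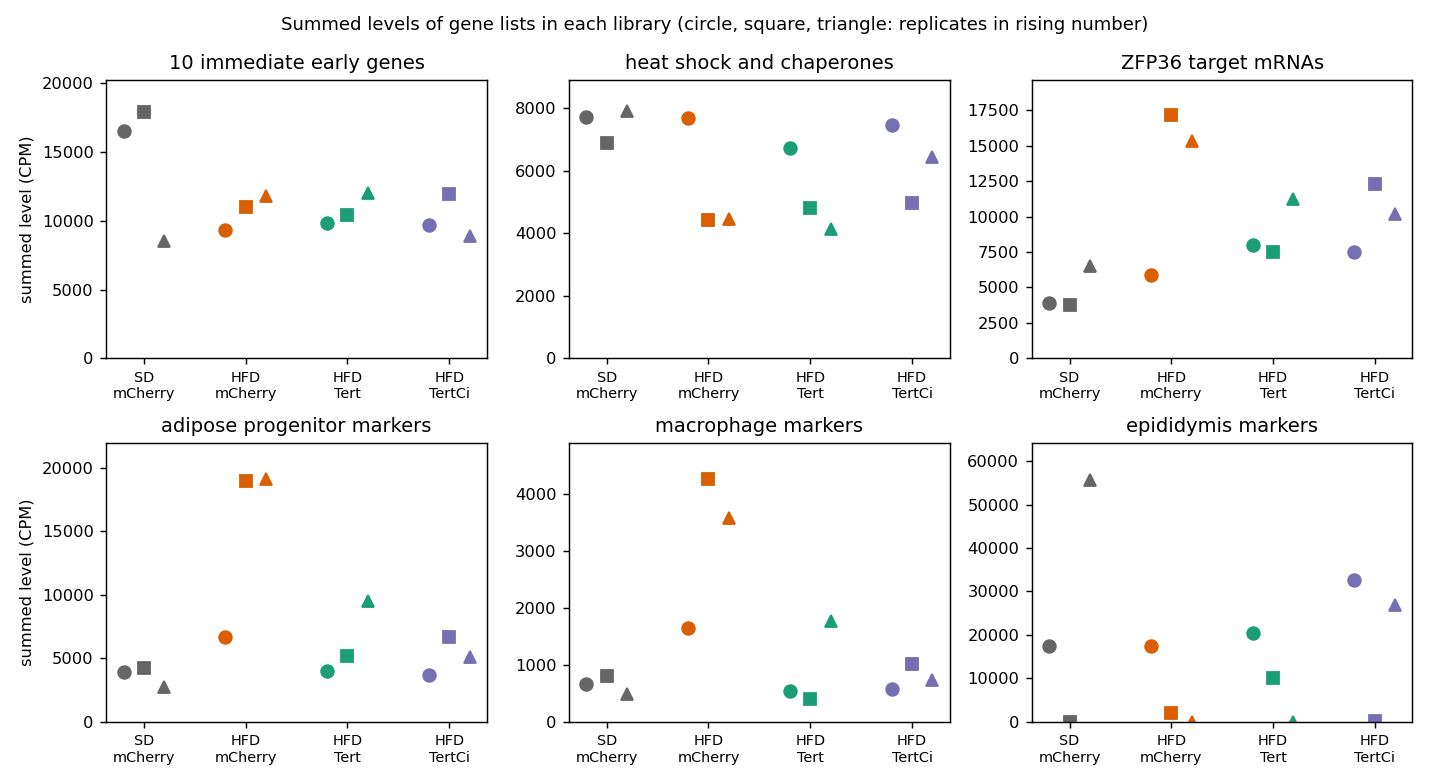
Summed level in CPM, on linear axes from 0, of the 10 members, the heat shock and Zfp36 target lists and 3 marker lists, with the 4 groups on the x axis and libraries as symbols in rising replicate number. The member sum reaches 16559 and 17948 CPM in SD mCherry replicates 1 and 2 and 8542 CPM in replicate 3. The ZFP36 target sum reaches 15338 and 17191 CPM in 2 HFD mCherry libraries. It is 5885 CPM in HFD mCherry replicate 15, below 6525 CPM in SD mCherry replicate 3.

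In the telomerase comparisons edgeR called 0 of 91 related genes in each, and limma-voom also 0. At unadjusted p under 0.05 there were 9 with Tert, which is 9.89% against 16.4% of all genes, 12 with TertCi, which is 13.2% against 14.7%, and 0 between the 2 alleles. DESeq2 called 1, 2 and 0 of 91, against 5.08%, 4.09% and 0.0419% of all genes. The genes named next are single values at unadjusted p from counts below the share of all genes. Klf10 was higher with Tert (1.02 ± 0.27 SE) and with TertCi (0.67 ± 0.27 SE), and Egr2, a relative of Egr1, lower with Tert (-1.22 ± 0.45 SE) and with TertCi (-1.07 ± 0.44 SE). Ctgf was higher in both (0.60 ± 0.22 SE and 0.86 ± 0.22 SE), and the stress kinase Mapk14 lower in both (-0.80 ± 0.26 SE and -0.97 ± 0.26 SE). For each of these, HFD mCherry is the shared reference. Marker genes of other cells differed in the same comparisons. At unadjusted p 7 of 8 macrophage markers were lower with Tert (median -1.83, against 9.75% of genes) and 7 of 8 with TertCi (median -2.09, against 8.92%). Summed levels of these markers were 1648 to 4258 CPM in HFD mCherry, 399.8 to 1761 CPM with Tert and 573 to 1015 CPM with TertCi. Of 6 mesothelial markers 4 were higher with Tert (median 2.25, against 6.62% of genes) and 3 with TertCi (median 1.47, against 5.76%). Mesothelial markers summed to 281 to 323 CPM in HFD mCherry, 651 to 1625 CPM with Tert and 634 to 877 CPM with TertCi. The part of both marker lists in the values of the members and of the related genes was not tested.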

How the data were processed

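Poly-A RNA of 12 libraries was sequenced. Per the submitters' processing notes the reads were handled with Subread and SAMtools on mm10 and counted with featureCounts 1.6.4; the authors deposited 1 table of raw counts per gene and library, and the values are not normalized. The annotation and the strand setting used for counting are not given in the sources used here. The members and the related and marker lists were chosen with earlier results of these data known. Counts were analysed as deposited in R 4.3.3 with edgeR 4.0.16 (filterByExpr, TMM scaling, robust quasi-likelihood F-tests, all 12 libraries, no covariate, Benjamini-Hochberg adjustment over 16713 genes, called at adjusted p under 0.05). CPM are relative to TMM-scaled totals of the tested genes, and log2 CPM used a prior count of 2. Totals of 16430330 to 19486965 counts set the precision, and the smallest chi-square per degree of freedom between 2 libraries of a group was 20.5, so no library was counted as a repeat of another. Named were all 10 members, up to 3 genes per related list and comparison by smallest p, and the 5 genes nearest to Fos. Alternatives were RLE factors, library size alone, DESeq2 1.42.0, limma 3.58.1 (voom), no filter, a mean of at least 10 CPM, only the libraries compared, Crisp1 (1 CPM or more) as a covariate, leaving out each library and, added later, only the libraries with Crisp1. Exonic lengths came from GENCODE M21 and promoters from RefSeq (GRCm38.p6).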

Additional observations from a re-analysis of the deposited data

How the results depend on the processing

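The 10 members had 150 values in each of the comparisons, 1 for each of 15 alternatives; 141 kept direction and side of the threshold in the diet comparison, 138 in Tert against mCherry, 134 in TertCi against mCherry and 137 in Tert against TertCi. In the diet comparison, at adjusted p under 0.05, DESeq2 called 3 of 10 members (12.4% of genes). The fit with the Crisp1 covariate called 1 of 10 (Ier2), near its share of 9.02% of genes. Leaving out a library gave 0 to 1, and the 1 was Atf3 without SD mCherry replicate 3 (0.281% of genes). At unadjusted p the diet count was 2 when only the libraries compared were fitted and 0 with only Crisp1 libraries (15.8% of genes). Leaving out a library gave 2 to 6. The count was 2 without SD mCherry replicate 2 (19.2% of genes) and 3 without HFD mCherry replicate 17 or 20. Without SD mCherry replicate 3 it was 6 (20.8% of genes). Tert against mCherry gave 0 with only Crisp1 libraries (13.7% of genes). It gave 0 to 1 without a library (0 without HFD mCherry replicates 17 or 20 or Tert replicates 26 or 27). TertCi against mCherry gave 2 of 10 with the Crisp1 covariate (18.8% of genes) and 0 with only Crisp1 libraries (10.2% of genes). It gave 0 to 2 without a library. The count was 0 without HFD mCherry replicates 17 or 20 or TertCi replicate 30, and 2 without HFD mCherry replicate 15 (19.2% of genes). Over the 4 groups the unadjusted count was 5 with DESeq2, 1 with limma-voom and 0 with only Crisp1 libraries. It was 0 to 6 without a library (6 without SD mCherry replicate 3). The adjusted count was 3 with DESeq2 and 0 to 2 without a library (2 of 10 without SD mCherry replicate 3, 3% of genes). Where no share of genes stands beside a count, the count is not read as a result about the members. Without HFD mCherry replicate 15 edgeR called 12.2% of all genes in the diet comparison and 0 of 10 members. Scaling by library size alone moved the median log2 fold change of all genes in the diet comparison from -0.075 to -0.27. With only the Crisp1 libraries the log2 fold change changed sign for Zfp36 in the diet comparison (0.0307), Atf3 in Tert against mCherry (-0.0132), Nr4a1 in Tert against mCherry (0.0688), Atf3 in TertCi against mCherry (-0.21), Zfp36 in TertCi against mCherry (-0.12), Nr4a1 in Tert against TertCi (0.0188). With library size alone the log2 fold change changed sign for Nr4a1 in Tert against mCherry (0.0861). With limma-voom the log2 fold change changed sign for Nr4a1 in Tert against mCherry (0.0101). With no filter the log2 fold change changed sign for Nr4a1 in TertCi against mCherry (-0.000262). With a mean of at least 10 CPM the log2 fold change changed sign for Atf3 in TertCi against mCherry (-0.0131), Zfp36 in TertCi against mCherry (-0.00275). With the Crisp1 covariate the log2 fold change changed sign for Atf3 in TertCi against mCherry (-0.00758), Zfp36 in TertCi against mCherry (-0.0253). Leaving out a library in the diet comparison gave log2 fold changes of -0.25 to 0.21 for Zfp36 and -0.29 to 0.0118 for Junb. Leaving out a library in Tert against mCherry gave log2 fold changes of -0.33 to 0.0369 for Jun, -0.13 to 0.27 for Zfp36, -0.0261 to 0.32 for Atf3 and -0.25 to 0.15 for Nr4a1. Leaving out a library in TertCi against mCherry gave log2 fold changes of -0.22 to 0.14 for Jun, -0.21 to 0.18 for Nr4a1, -0.29 to 0.18 for Zfp36 and -0.11 to 0.24 for Atf3. Leaving out a library in Tert against TertCi gave log2 fold changes of -0.11 to 0.10 for Nr4a1, -0.0502 to 0.19 for Junb, -0.0886 to 0.10 for Ier2, -0.0769 to 0.31 for Dusp1, -0.13 to 0.39 for Zfp36, -0.0137 to 0.56 for Fosb and -0.0221 to 0.18 for Atf3. The cause of these shifts was not tested. No paired analysis was possible because no replicate number occurs in more than 1 group. With 3 libraries a group and these spreads, even differences of several standard errors could miss the adjusted threshold. An example is Ier2 in the diet comparison (-0.79 ± 0.21 SE, adjusted p = 0.0841 by edgeR). An uncalled member is thus not shown to be unchanged.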
